A study of Mus musculus with 1 sample.

Results

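Macrophage and leukocyte genes were examined as 37 of the 27998 genes listed for a single-cell RNA-seq library of the postnatal day 8 mouse testis, picked by their symbols. The library came from Zscan2+/+ mice of the C57BL/6 strain, which are the wild-type controls of a knockout study, and 3 mice were pooled in equal cell numbers. Cells were selected with THY1 beads, a step used to enrich spermatogonia, and unselected testis cells were then added back, so the share of any cell type reflects that mixing and not the testis. With 1 pooled library there was no biological replicate, cells were not treated as replicates, and every interval covers counting error only. The Zscan2 knockout library was not analysed here.

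The matrix held 970 cell barcodes and 11358045 unique molecular identifiers (UMIs, each standing for 1 captured transcript), with 2655 to 44915 UMIs per barcode and a median of 9115. After filtering, 920 cells were kept. A cell was placed over the myeloid limit when its UMIs of Lyz2, C1qa and Fcer1g summed to at least 10, and in the Cd3 group when it had at least 1 UMI of Cd3e or Cd3g. There were 35 cells over the myeloid limit without a Cd3 UMI, 3.80% of the kept cells (exact binomial 95% interval 2.66 to 5.25%), 23 cells with a Cd3 UMI below the limit, and 7 cells that met both rules. The other 855 cells were 310 germ cells and 545 other somatic cells by cluster, the latter made up of 252 Sertoli-like, 185 stromal-like and 94 peritubular myoid-like cells and 14 cells of a cluster left unnamed. All 37 members had a UMI in the kept cells and 32 had at least 20. Levels are given as CPM, the UMIs of a gene per 1000000 UMIs summed over a set of cells, and as each UMI counts a transcript end they were not scaled to gene length.

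Macrophages are resident phagocytes of the testis interstitium and of the tubule surface. They sense and engulf dying cells and microbes through surface receptors, many of which signal through short adaptor chains with an immunoreceptor tyrosine-based activation motif (ITAM), and they digest their cargo in lysosomes. FCER1G and TYROBP are such adaptors in myeloid and natural killer (NK) cells, whereas the CD3 chains do the same work for the T cell receptor. Complement C1q, made largely by macrophages, binds immune complexes and dying cells, and MHC class II proteins present digested peptides to T cells.

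The 35 cells over the myeloid limit carried macrophage genes at high levels. They coincided cell for cell with a single cluster whose markers were those of macrophages, and all 7 genes of a macrophage marker list that was not used by the limit were over 4-fold higher there than in the cells outside both rules. Csf1r, the receptor for the growth factor that sustains macrophages, had 437 UMIs in 34 of the 35 cells (847 CPM), against 12 UMIs in the 855 cells outside both rules. Among cells without a Cd3 UMI, the summed UMIs of Lyz2, C1qa and Fcer1g left a wide gap at the limit. The lowest cells inside had 56 and 70 UMIs, the median was 211 and the highest 589, while the highest cell outside without Cd3 had 5. Cells with a Cd3 UMI showed no such gap. Their highest sum below the limit was 9, and the cells that met both rules had 10 to 56. Members made up 6.35% of all UMIs in the 35 cells over the limit and 0.0329% in cells outside both rules. Lyz2, C1qa and Fcer1g, which set the limit, gave 4328, 1780 and 2194 of the 32791 member UMIs in the 35 cells. That contrast therefore follows in part from the rule. Of the members not used by the limit, 29 had at least 20 UMIs and 27 of them were at least 4-fold higher than outside, against 6.2% of all 12989 genes counted in the same way, and the 2 exceptions were Cd3g and Cd3d. Most of these members, and 5 of the 7 marker genes, passed the minimum of 20 UMIs through these same cells, so both counts describe the lists and are no support for them. Markers of the other testis cell types were mostly scarce in these cells. The germ cell list was at 29.1 CPM against 731 CPM outside, the Sertoli cell list at 40.7 CPM against 1038 CPM, and no UMI of the 6 Leydig cell genes was found. The endothelial gene Egfl7 was near its level outside, at 31.0 CPM against 33.6 CPM. The red blood cell list was at 825 CPM against 1105 CPM outside, with 240 UMIs per 10000 in its highest cell. Outside, 10668 of its 11099 UMIs lay in the germ cell class, whose highest cell had 8322 per 10000. Other somatic cells were at 91.1 CPM, below the cells over the limit. The median per cell hardly differed, at 0.817 per 10000 over the limit, 0.835 in other somatic cells and 0.83 in germ cells. The higher summed levels are thus not those of the typical cell. The part of red blood cell RNA in these levels was not tested.

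The secreted products ranged from the highest of the members to nearly absent. Apoe, a lipid carrier, was the highest at 13049 CPM (Poisson 95% interval 12739 to 13364), with 5 to 551 UMIs per cell and a median of 144. Pf4, a chemokine better known from platelets, was at 6255 CPM (6041 to 6474), with a median of 78 and a highest value of 220 UMIs, and was missing from 1 of the 35 cells. Sepp1, the selenium carrier selenoprotein P, reached 3583 CPM (3421 to 3750) with 1 to 143 UMIs per cell and a median of 44. F13a1, the A chain of clotting factor XIII, stood at 922 CPM and was found in 34 of the 35 cells. Ccl4, a chemokine of activated cells, was close to absent, with 5 UMIs in 2 cells.

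The 3 chains of complement C1q were detected at levels of the same order. C1qa was at 3449 CPM (3291 to 3613), C1qb at 3660 CPM (3497 to 3829) and C1qc at 3862 CPM (3694 to 4035), and the intervals of C1qa and C1qc did not overlap. Each was found in 34 of the 35 cells, the missing cell being the same for all 3, and the medians were 43, 44 and 55 UMIs per cell. Per-cell levels of C1qb and C1qc were correlated (Spearman's rho 0.81 over the 35 cells, a description of cells that share a library). The chains lie side by side on the minus strand of chromosome 4 in the GRCm38 assembly, with C1qb at chr4:136880129-136886187, C1qc at chr4:136889804-136893065 and C1qa at chr4:136895917-136898803.

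The adaptor chains Fcer1g and Tyrobp were present in every cell over the limit. Fcer1g (chr1:171229572-171234365), which was used to set the limit, was at 4251 CPM with 18 to 155 UMIs per cell and a median of 62. Tyrobp (chr7:30413760-30417585), which was not, was at 3864 CPM (3696 to 4037) with 10 to 127 UMIs per cell and a median of 49. Of the receptors that signal through these chains, Trem2, a lipid-sensing partner of TYROBP, was at 854 CPM and the Fc receptor gene Fcgr3 at 659 CPM, each in 34 of the 35 cells. Fcrls, a relative of the Fc receptors, was at 595 CPM in 33 cells. The 3 CD3 chain genes had no UMI, which for Cd3e and Cd3g follows from the rule.

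Among other surface receptors, Cx3cr1, the fractalkine receptor, was at 1135 CPM and in all 35 cells. Mrc1, the mannose receptor, was at 1042 CPM and in 33 cells, with a highest value of 35 UMIs, and it varied with F13a1 from cell to cell (rho 0.58). Adgre1, which encodes the F4/80 antigen, was at 308 CPM and in 33 cells. It was also the most restricted of the members with 100 or more UMIs in these cells, since 159 of its 160 UMIs lay there. Itgam, an integrin chain, summed over its 2 overlapping gene IDs, was much lower at 44.6 CPM, in 15 cells. The exons of the 2 IDs overlap on the same strand, and the effect of this on the Itgam level was not tested. Cd14, a co-receptor for bacterial lipopolysaccharide, was at 32.9 CPM, in 12 cells. Cd163, a haemoglobin scavenger receptor, gave 2 UMIs. The MS4A genes Ms4a7 and Ms4a6c were at 682 and 541 CPM.

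Lysosomal and killing genes were broadly expressed. Lyz2, the lysozyme used to set the limit, was at 8386 CPM with 8 to 433 UMIs per cell and a median of 96. The endosomal protease Lgmn was at 1661 CPM, the lysosomal glycoprotein Cd68 at 949 CPM, the protease Ctss at 928 CPM, the lysosomal membrane gene Laptm5 at 833 CPM and the pore-forming gene Mpeg1 at 225 CPM. Of these, Cd68, Ctss and Laptm5 had a UMI in every cell. Aif1, an actin-binding protein gene, was at 1054 CPM and in all 35 cells. It had no UMI in the 7 cells that met both rules or in the 23 cells with Cd3 UMIs below the limit. Genes shared by leukocytes were lower. Coro1a was at 304 CPM, Cd52 at 260 CPM and Ptprc, which encodes CD45, at 73.6 CPM in 22 cells.

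**Figure D1:**
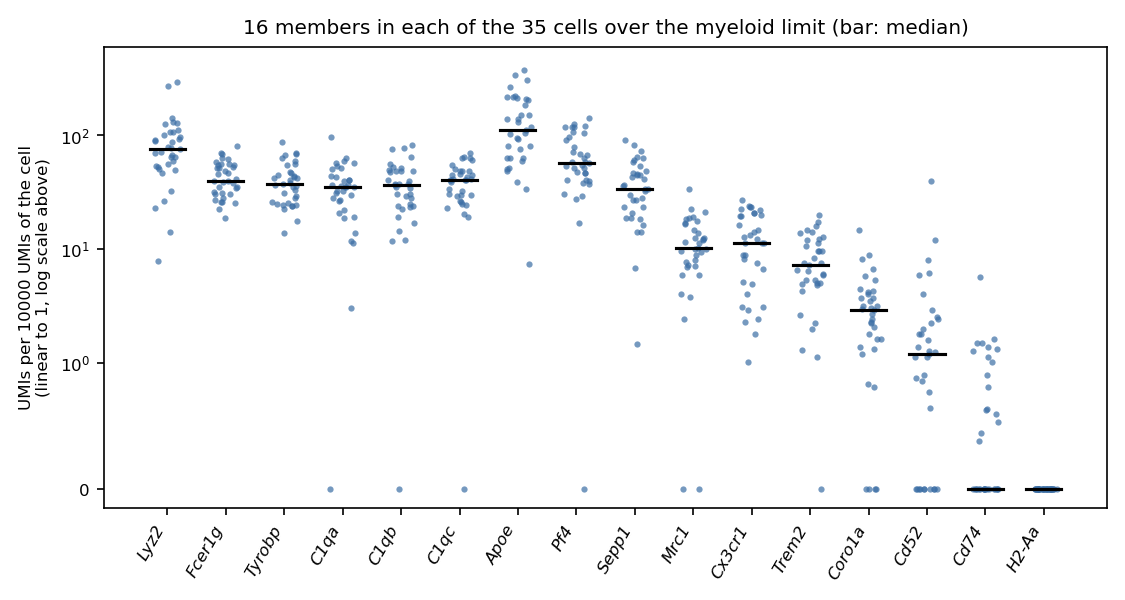
UMIs of 16 members per 10000 UMIs of the cell (y axis, linear to 1 and log scale above) in each of the 35 cells over the myeloid limit (points), with the median as a bar. Lyz2, Fcer1g, Tyrobp and Apoe are above 0 in every cell, 1 cell sits at 0 for all 3 C1q chains and Pf4, and H2-Aa is at 0 throughout.

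MHC class II genes were low or absent in the same cells. No UMI of H2-Aa or H2-Ab1, the chains of the I-A molecule, was found among the 516075 UMIs of the 35 cells. A count of 0 of 35 cells allows a share of cells with a UMI of up to 8.57%, and a level of up to 5.81 CPM. Cd74, the invariant chain that guides class II molecules, had 32 UMIs in 17 cells (62.0 CPM) and no more than 7 in a cell, so no cell had 10 UMIs over Cd74, H2-Aa and H2-Ab1. Outside both rules the class II chains gave 21 UMIs spread over 18 cells with at most 3 in a cell. A longer class II pathway list held 9 genes, of which Ciita, H2-DMb1, H2-DMb2, H2-Oa and Cd40 had under 20 UMIs and were not counted. Of the 4 genes counted, H2-DMa (83.3 CPM), Ifi30 (184 CPM) and the co-stimulatory gene Cd86 (96.9 CPM) were at least 4-fold higher than outside, as were 6.2% of all genes. H2-Eb1 had no UMI. UMIs of these same cells counted towards the minimum, so this count is no support for the list. All 8 genes of a dendritic cell list, among them Flt3, Zbtb46 and Itgax, had no UMI in the 35 cells.

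A single cell over the limit lacked UMIs of all 3 C1q chains, and it was singled out after its values were seen. It had 6777 UMIs, of which 186 were Lyz2, 21 Fcer1g and 47 Tyrobp. It also lacked Pf4, Mrc1, Csf1r, Adgre1, Trem2 and Ms4a7 and had 5 UMIs of Apoe. The same cell held 12 UMIs of Ccr2, all that were found in the 35 cells, 27 of the 29 UMIs of Plac8, 4 of S100a8 and 27 of Cd52. Ccr2 and Plac8 are known as genes of circulating monocytes. Ly6c2, another such gene, was at 0 in it, and Plac8 gave 371 UMIs in cells outside both rules. The next cell by C1q had 46 C1q UMIs and no Mrc1, with 3 of the 5 Ccl4 UMIs of these cells.

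Genes of related pathways were counted in the same 35 cells. Of the genes of each list with at least 20 UMIs, those at least 4-fold higher than outside were 8 of 9 in the CSF1 receptor axis and lineage factor list, 12 of 13 in the ITAM signalling list, 11 of 13 in the lysosome list, 8 of 11 in the uptake and scavenger receptor list, 5 of 8 in the complement list and 9 of 9 in the chemokine and cytokine list, where 6.2% of all genes counted were. UMIs of these same cells counted towards the minimum of 20, and genes such as C3ar1 passed it through them. The counts therefore describe the lists and are no support for them. Left out for under 20 UMIs were Ccl3, Cxcl2, Il1b, Il10 and Tnf of the 14 chemokine and cytokine genes. So were C3, Cfb and Vsig4 of the 11 complement genes, and Il34, Fgr, Trem1 and Timd4 of the other lists. Spi1, which encodes the myeloid transcription factor PU.1, was found in all 35 cells (355 CPM, against 1.29 CPM outside), and Maf was at 971 CPM. Csf1, the growth factor gene itself, was the exception in its list. In the ITAM list, Clec4n, a receptor that signals through FCER1G, was at 448 CPM and the inhibitory receptor Sirpa at 341 CPM. Stab1 (1021 CPM) and Cd36 (453 CPM), both scavenger receptors, led the uptake list with Gas6 (500 CPM), a bridge to dying cells, while Axl was 1.78-fold higher and Tyro3 and Mfge8 were at 0.135 and 0.206 of their level outside. In the complement list C4b and Serping1 had no UMI in the 35 cells, against 20 and 659 UMIs outside. Among genes that were no members, found in 25% or more of the 35 cells and with 100 or more UMIs in all, the complement receptor gene C3ar1 had the largest ratio (139 UMIs, 1 outside). Next came Evi2a, Cd84, Ly86, Cybb, Wfdc17, Ms4a6b, Csf1r, Marco and Clec4a2, with ratios of 2160 to 628.

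The promoters of 4 members that were high together are shown for a sequence they share. Promoter windows of 300 bases, 250 before and 50 after the start of a transcript, were available from RefSeq (GRCm38.p6) for 29 of the 37 members. GAGGAAGT, a form of the site that PU.1 is known to prefer, or its reverse complement ACTTCCTC occurred in windows of 5 of the 29 members (17.2%), Pf4, C1qc, F13a1, Ctss and Sepp1, against 3.69% of the 27025 genes with a window. The shorter core GAGGAA, which lies inside it, was in windows of 19 of the 29 (65.5%) on either strand, against 31.3% of genes. A gene was counted if any of its windows held the sequence. By window, GAGGAAGT was in 6 of the 39 windows of these members, against 3.2% of all windows. A match is only a run of letters, and binding was not measured. The windows are chr5:90772185-90772484 on the plus strand for Pf4, chr4:136892865-136893164 on the minus strand for C1qc, chr3:95526536-95526835 on the plus strand for Ctss and chr13:37049164-37049463 on the minus strand for F13a1, each printed 5′ to 3′ along the gene with the 8-base match in capitals. The match begins 10 bases before the start for Pf4, 195 before for C1qc, 2 before for Ctss and 14 after for F13a1. The F13a1 window shown is not the one at the annotated 5′ end of the gene. That one, chr13:37050195-37050494, held no match.
Pf4: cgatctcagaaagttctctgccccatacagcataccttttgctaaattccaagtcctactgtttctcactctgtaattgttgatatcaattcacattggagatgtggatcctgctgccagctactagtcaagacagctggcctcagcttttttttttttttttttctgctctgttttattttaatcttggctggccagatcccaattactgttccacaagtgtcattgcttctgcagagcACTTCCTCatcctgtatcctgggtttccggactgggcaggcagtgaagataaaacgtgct
C1qc: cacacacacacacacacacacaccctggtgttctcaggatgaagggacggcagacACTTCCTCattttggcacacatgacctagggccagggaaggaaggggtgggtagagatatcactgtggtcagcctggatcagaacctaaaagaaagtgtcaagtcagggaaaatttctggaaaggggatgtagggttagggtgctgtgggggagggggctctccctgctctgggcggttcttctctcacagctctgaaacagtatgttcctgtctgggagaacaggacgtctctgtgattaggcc
Ctss: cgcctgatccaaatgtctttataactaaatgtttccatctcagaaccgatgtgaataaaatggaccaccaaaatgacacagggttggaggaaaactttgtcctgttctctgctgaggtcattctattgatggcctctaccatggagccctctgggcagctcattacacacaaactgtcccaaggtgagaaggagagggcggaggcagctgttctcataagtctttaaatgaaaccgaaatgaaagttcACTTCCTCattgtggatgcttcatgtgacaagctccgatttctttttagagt
F13a1: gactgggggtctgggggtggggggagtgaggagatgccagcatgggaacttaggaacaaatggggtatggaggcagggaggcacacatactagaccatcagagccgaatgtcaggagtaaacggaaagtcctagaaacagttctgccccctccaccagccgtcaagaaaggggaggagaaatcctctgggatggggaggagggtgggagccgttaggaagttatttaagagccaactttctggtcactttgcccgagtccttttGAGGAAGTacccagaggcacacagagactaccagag

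Outside the leukocytes, nearly all of these genes were found at a small and similar fraction of their level in the myeloid cells. Among the 26 members with at least 100 UMIs in the 35 cells, the median level was 0.224% of the myeloid level in germ cells, 0.163% in Sertoli-like, 0.153% in stromal-like and 0.120% in peritubular myoid-like cells, and 23 of the 26 were below 1% in germ cells. Lyz2 was at 15.1 CPM in germ cells, 9.24 in Sertoli-like, 17.8 in stromal-like and 18.9 in peritubular myoid-like cells. A Lyz2 UMI was found in 67 of the 310 germ cells (21.6%, median depth 18188 UMIs), against all 35 myeloid cells (median depth 13010), and once every cell was thinned to 2500 UMIs the counts were 12 of 310 and 35 of 35. Lyz2, C1qa and Fcer1g set the limit and are among the 26 members, so their contrast follows in part from the rule. Tyrobp, which no rule used, had a UMI in 45 of the 310 germ cells and in all 35 myeloid cells. After thinning the counts for Tyrobp were 13 of 310 and 35 of 35. Levels of this size were not read as expression, and the part of free RNA in them was not tested. Cd3d, a lymphoid member that no rule used, gave 5 UMIs in 5 cells outside both rules.

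**Figure D2:**
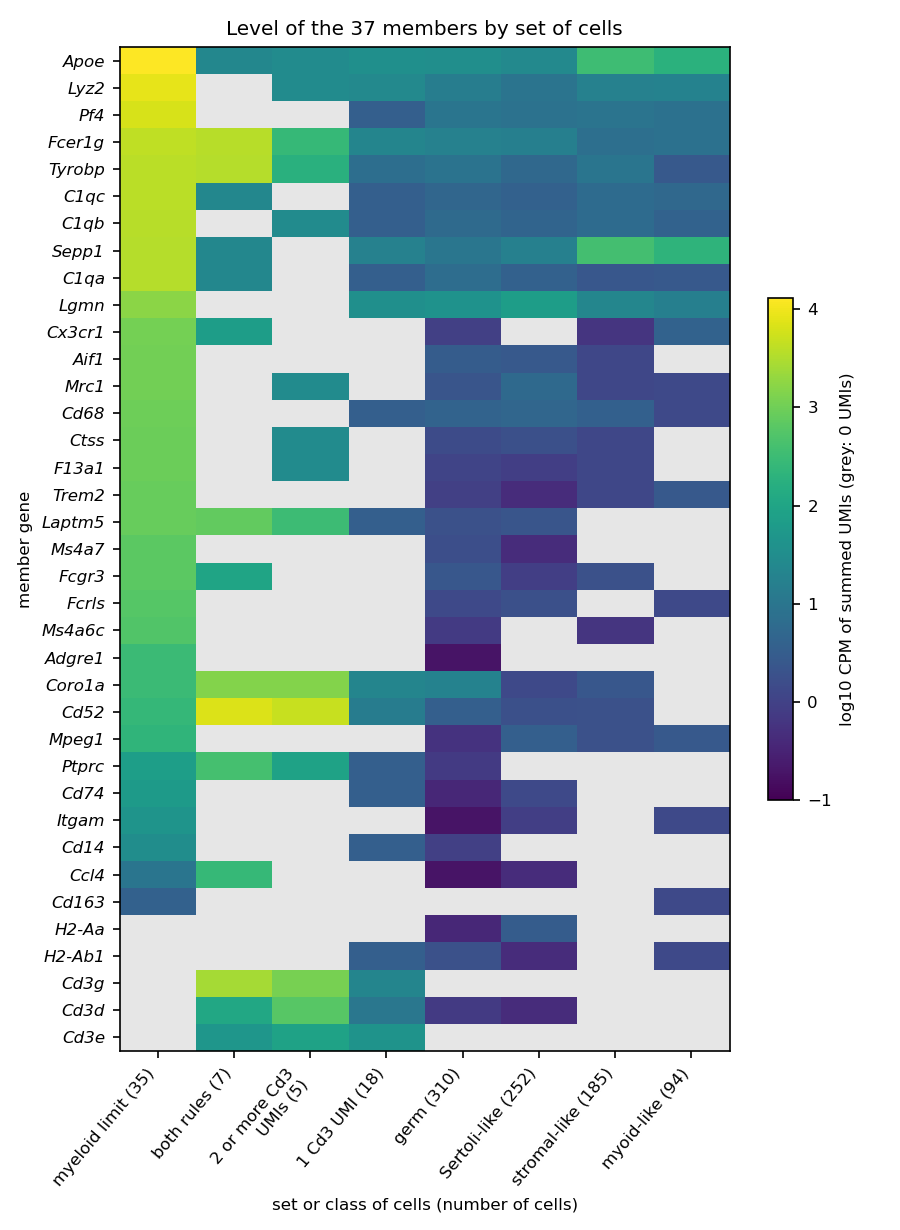
Level of each of the 37 members (rows, ordered by the level in the cells over the myeloid limit, with the CD3 chains last) in 8 sets or classes of cells (columns, with the number of cells), as log10 CPM by colour with grey for 0 UMIs. Most members are bright in the first column only, whereas Fcer1g, Tyrobp, Laptm5, Coro1a, Cd52 and Ptprc are also high in the cells that met both rules, and Sepp1 and Apoe stand out in stromal-like and peritubular myoid-like cells.

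Sepp1 and Apoe stood above that level in mesenchymal cells. In stromal-like cells Sepp1 was at 383 CPM (353 to 414), which was 10.7% of the myeloid level, and was found in 171 of the 185 cells. It was at 215 CPM (183 to 251) in peritubular myoid-like cells, in 78 of 94, but at 16.7 CPM in Sertoli-like and 10.4 CPM in germ cells. Among these classes Apoe was also highest in stromal-like cells, at 331 CPM (304 to 360), followed by peritubular myoid-like cells at 188 CPM (158 to 222). It was at 25.5 CPM in Sertoli-like and 33.9 CPM in germ cells, the reverse of the order of Sepp1 there. Over all other somatic cells, Sepp1 was the only 1 of 30 members with at least 20 UMIs at 5% or more of the myeloid level, at 5.10%, where 96% of all genes counted were. That count sits at its threshold and was 0 without the deepest myeloid cell. The 30 members include Lyz2, C1qa and Fcer1g, which set the limit.

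Lgmn and Coro1a also stood apart. Smaller departures, in members with fewer UMIs, were Cd52 at 1.38% of the myeloid level in germ cells and Mpeg1 at 1.57% in Sertoli-like cells. These are 3.58 and 3.52 CPM, set against low myeloid levels of 260 and 225 CPM. Both lay below Lyz2 in the same cells (15.1 and 9.24 CPM), which was not read as expression. Lgmn was at 70.0 CPM (59.5 to 81.7) in Sertoli-like cells, 4.21% of the myeloid level, in 106 of 252 cells, and the 3 Sertoli-like clusters ranged from 62.8 to 76.8 CPM. It was at 40.7 CPM in germ cells and 16.2 in peritubular myoid-like cells. Coro1a, an actin regulator of leukocytes, was at 18.6 CPM (15.2 to 22.7) in germ cells, 6.13% of the myeloid level and the only 1 of 30 members at 5% or more there, where 93.4% of all genes counted were. The largest germ cell cluster, whose leading genes include Ret, Gfra1 and Lhx1, was at 22.5 CPM (17.99 to 27.78), and the others were at 6.80 CPM (2.94 to 13.4) and 16.04 CPM (5.21 to 37.4), the latter interval overlapping that of the largest. Coro1a was at 1.32 CPM in Sertoli-like and at 0 UMIs in peritubular myoid-like cells. The exons of Coro1a overlap those of Bola2 on the opposite strand. Bola2 was at 538 CPM in germ cells, 256 in the myeloid cells and 211 in other somatic cells, and its part in the Coro1a level was not tested. Sepp1 overlaps Ccdc152 in the same way, which gave 1 UMI in stromal-like cells and 0 in myeloid cells. In germ cells Ccdc152 gave 76 UMIs (14.3 CPM), where Sepp1 was at 10.4 CPM, and its part in the Sepp1 level was not tested. Cd52 overlaps Crybg2, which gave no UMI in any of these cells.

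**Figure D3:**
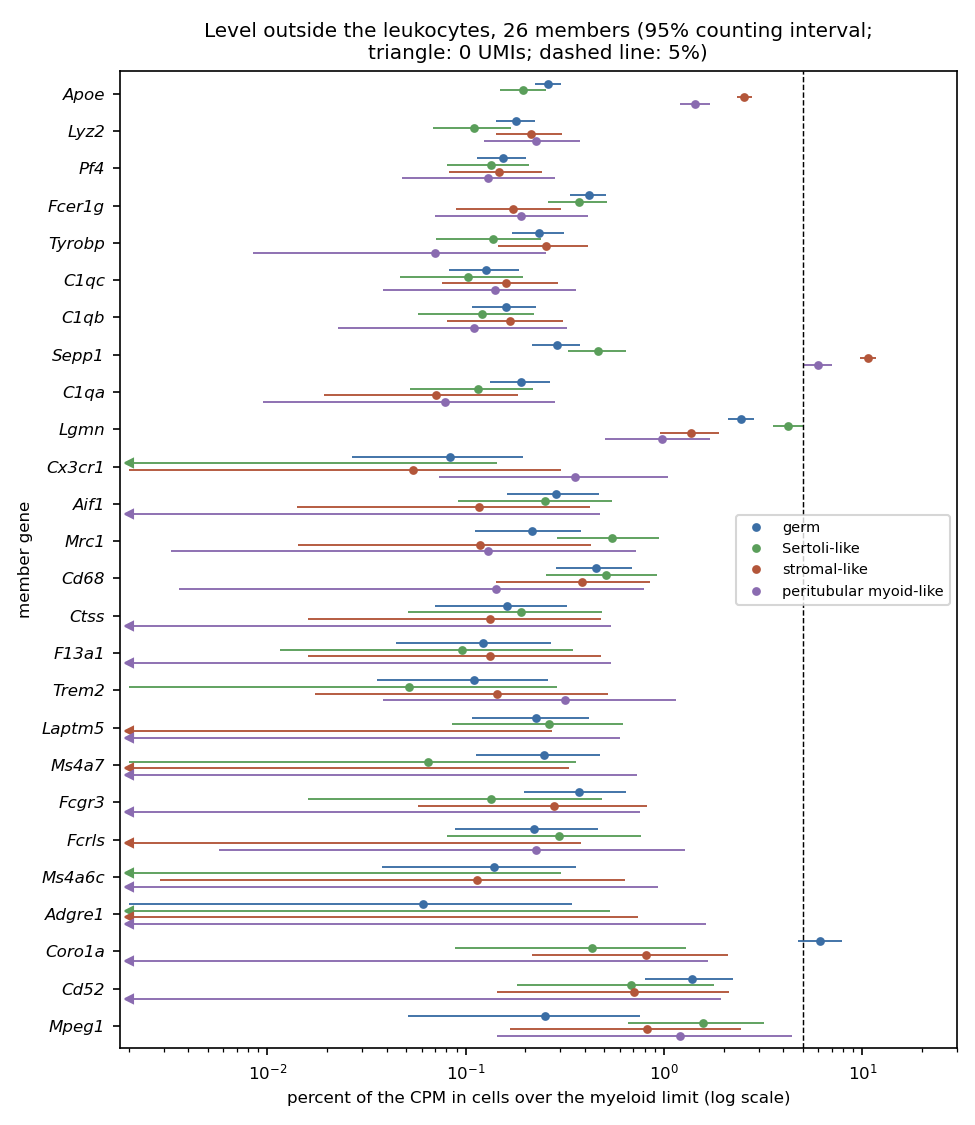
Level of 26 members in germ, Sertoli-like, stromal-like and peritubular myoid-like cells as a percent of their CPM in cells over the myeloid limit (x axis, log scale), with 95% counting intervals, triangles for 0 UMIs and a dashed line at 5%. Most points lie near 0.1 to 0.5%, with Sepp1 (10.7%) and Apoe (2.54%) to the right in stromal-like cells, Lgmn (4.21%) in Sertoli-like cells and Coro1a (6.13%) in germ cells.

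The Cd3 rule gathered unlike cells, and most of them did not resemble T cells. Of the 23 cells below the myeloid limit, 18 had a single UMI of Cd3e or Cd3g, and 14 of these 18 lay in germ cell clusters. Germ cell markers summed to 1078 CPM in the 18 cells, against 1356 CPM in germ cells outside both rules, while Ptprc and Laptm5 gave 1 UMI each. Some lymphoid genes were present, with 4 UMIs of Cd52 in 1 cell and 3 of Cd3d in 1 cell. An NK and innate lymphoid list of 8 genes reached 12.9 UMIs per 10000 in its highest cell. The single UMIs were 12 of Cd3e and 6 of Cd3g. In cells with 2 or more Cd3 UMIs the balance was the opposite, with 2 UMIs of Cd3e and 113 of Cd3g in the 7 cells that met both rules and 3 and 39 in the 5 cells below the limit. Over the 23 cells, 7 of 31 members counted were at least 4-fold higher than outside, against 1.5% of genes. They were Cd52, Cd3d, Ptprc, Laptm5 and Coro1a, with Cd14 and Cd74 at 1 UMI each. UMIs of these 23 cells counted towards the minimum, and Cd3d passed it through them, with 24 of its 34 UMIs there. The count of 7 therefore describes the members and is no support for them. The 5 cells with 2 or more Cd3 UMIs held 167 of the 171 Cd52 UMIs, 51 of the 57 of Coro1a and 21 of the 24 of Cd3d. With at least 2 Cd3 UMIs required, 11 members were at least 4-fold higher, 4 of them, C1qb, Mrc1, F13a1 and Ctss, on 1 UMI each. The share of 1.5% belongs to the 23 cells, and none is given for these 5 cells, so that count was not read as a result. Among genes that were no members, found in 25% or more of the 23 cells and with 100 or more UMIs in all, Rac2 and Ltb, both leukocyte genes, had the largest ratios (86.5 and 38.8), ahead of Arhgdib, Ptpn18, H2-D1, H2-K1, AI662270, Terf2ip, Shisa5 and Cotl1.

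The 7 cells that met both rules shared the adaptor chains of myeloid cells but few of the other macrophage genes. They passed the myeloid limit on Fcer1g, with summed UMIs of 10 to 56, of which Lyz2 and C1qa gave at most 1 UMI in a cell. With a limit of 20 UMIs, 3 cells met both rules. Fcer1g was found in 7 of 7 cells with 55, 23, 22, 17, 13, 12 and 10 UMIs, and Tyrobp with 21, 33, 27, 18, 14, 9 and 26 UMIs in the same order. As CPM, Fcer1g was at 3629 (3075 to 4254) and Tyrobp at 3533 (2987 to 4151), beside 4251 and 3864 in the 35 myeloid cells, and the Fcer1g level here is set in part by the limit. Lyz2, C1qb, Pf4, Mrc1, Trem2 and Csf1r had no UMI, while Cx3cr1 had 3 and Fcgr3 had 4. Cd52 was far higher than in myeloid cells, at 7043 CPM (6262 to 7894), and Coro1a at 1480 CPM, Laptm5 at 764 CPM and Ptprc at 406 CPM were found in all 7. At least 4-fold higher than outside were 9 of 28 members counted, against 5.2% of genes. They were Tyrobp, Cd52, Ptprc, Laptm5, Coro1a, Cd3d, Cx3cr1, Fcgr3 and, on 1 UMI, C1qc. UMIs of these 7 cells counted towards the minimum, so this count too describes the members and is no support for them.

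Several genes of cytotoxic and NK lymphocytes were found in these 7 cells, some mainly in a few of them, and T cell receptor components were incomplete. Nkg7, a granule protein gene, had 100 UMIs and was found in all 7 with 10 to 21 UMIs each. Ncr1, which encodes the NK receptor NKp46, had 21 UMIs in 6 cells, Klrb1c 10 UMIs in 5 cells and Gzma 25 UMIs in 5 cells. Of the Gzma UMIs, 20 lay in 1 cell. Xcl1, a chemokine of NK and activated T cells, had 230 UMIs in all 7 and the granzyme gene Gzmc 263 UMIs in 5. The Gzmc UMIs per cell were 122, 82, 56, 2 and 1. Of the NK and innate lymphoid list, Il1rl1 and Rora had no UMI, and Gzmb and Gata3 had at most 4 and 2 UMIs in a cell. Of a T cell receptor signalling list, Lck and Thy1 were at least 4-fold higher than outside, as were 5.2% of all genes. They had up to 4 and 6 UMIs in a cell, while Lat, Lcp2 and Cd4 were not 4-fold higher. UMIs of these same cells counted towards the minimum, so this is no support for the list. Cd3g was found in all 7 with 2 to 53 UMIs, and in the cells without Cd3e its presence follows from the rule. Cd3d (5 UMIs) and Cd3e (2 UMIs) were in the same single cell, which also held the only Cd8a (4 UMIs) and Cd247 (2 UMIs) and was the only one without Ncr1. Cd3g (chr9:44969572-44980431, minus strand) and Cd3d (chr9:44981786-44987339, plus strand) start 1355 bases apart and point away from each other. Hcst, a signalling adaptor whose gene lies 126 bases from Tyrobp, had 53 UMIs in all 7 cells. The T cell receptor constant genes are not in the gene list used, so these cells were not assigned a type. They were shallow, with 3706 to 8016 UMIs.

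The 5 cells with 2 or more Cd3 UMIs below the limit fell into different kinds, described after their values were seen. In 3 of them Cd3g (10, 6 and 9 UMIs) came with Cd3d (6, 5 and 10 UMIs), Lck (2, 4 and 3 UMIs) and Lat (2, 2 and 8 UMIs), genes of T cell receptor signalling, and with no Fcer1g or Tyrobp. The deepest of these, with 17264 UMIs, held 113 UMIs of Cd52, 33 of Coro1a and 18 of Thy1. In another cell Cd3g (9 UMIs) came with Fcer1g (9), Tyrobp (6) and Nkg7 (9), as in the cells that met both rules. It also held Gzma (37) and Gzmc (62) and no Cd3d or Cd3e. It missed the myeloid limit by 1 UMI. The last cell had 5 UMIs of Cd3g with Gata3 (3), Rora (2) and Il7r (1). Together with the 7 cells above, these 5 cells made up 12 of the 26 cells of the unnamed cluster. The other 14 held peritubular myoid markers at 4599 CPM and endothelial markers at 1079 CPM, so that cluster was not used as a cell type.

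**Figure D4:**
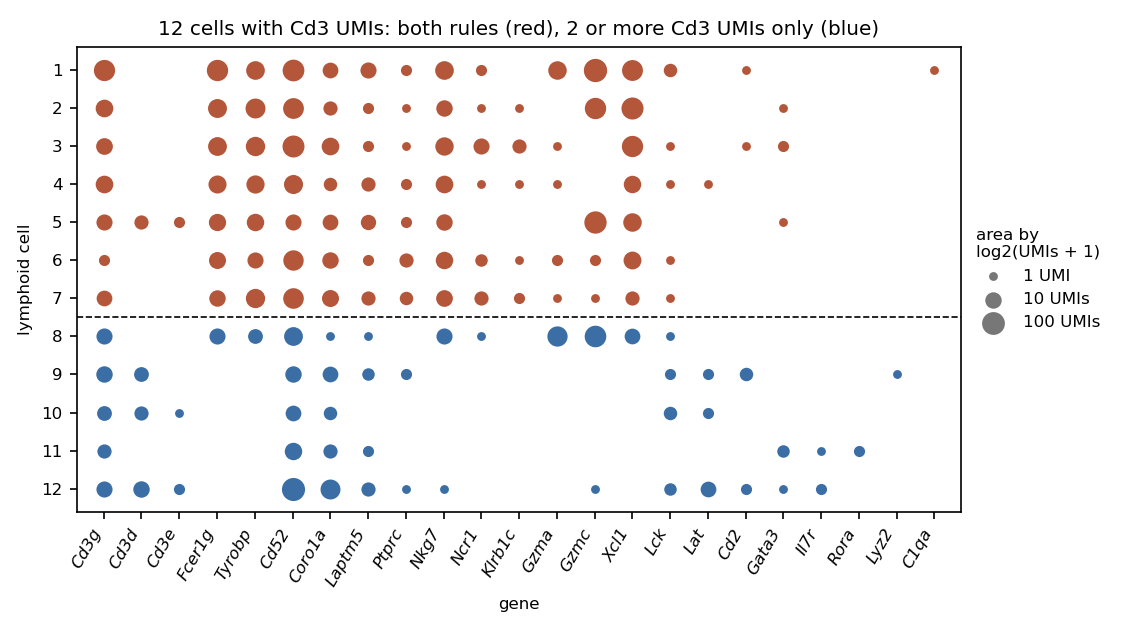
UMIs of 23 genes (columns) in the 12 cells with 2 or more Cd3e and Cd3g UMIs (rows), with dot area set by log2(UMIs + 1) and no dot for 0 UMIs. Red cells met both rules and carry Cd3g with Fcer1g, Tyrobp, Nkg7 and Xcl1, and of the blue cells below the myeloid limit 1 shares that pattern while 3 carry Cd3g with Cd3d, Lck and Lat.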

How the data were processed

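The library was made with 10x Genomics v2 chemistry, and the deposited matrix holds UMI counts that the authors obtained with Cell Ranger 2.1.0 on mm10, per the labels. The authors also name Seurat. Here a cell was kept if it had 500 genes or more, its mitochondrial UMIs stayed below 10% and Scrublet did not call it a doublet. Scrublet made 4 calls, 1 of them over the myeloid limit. Counts were log-normalized to 10000 and clustered with Seurat 5.3.0 in R 4.3.3 (14 principal components, resolution 0.5). Clusters were named from the mean difference of marker lists, and a cluster with less than 0.1 between its best lists and no marker among its 10 leading genes stayed unnamed, a limit set after its values were seen. UMIs were summed over sets. Intervals are exact Poisson, exact binomial and, for ratios, conditional binomial (SciPy 1.17.1), and no p-value was computed. The ratio code was tested on simulated Poisson counts drawn from the profile outside both rules. These hold no cell-to-cell spread, so the test checks the code only and not how the intervals hold for real cells. A count of 0 was bounded by 3 counts. Named genes were all members, the largest of each list and the 10 largest ratios among genes in 25% of a set with 100 UMIs. The members and lists were chosen with earlier results of these data known.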

Additional observations from a re-analysis of the deposited data

How the results depend on the processing

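No paired analysis was possible because there was 1 library. Of 82 recomputed counts 70 stayed within 1.5 times the main count and 12 did not. Of 283 recomputed ratios of members over cells outside, 17 moved and none reversed. The lowest was 9.16-fold, for Cd163, which had 3 UMIs in the kept cells. Lyz2, C1qa and Fcer1g, which set the limit, are among these members, and most members had most of their UMIs in the cells over the limit. The lack of a reversal is therefore no support. With a mitochondrial limit of 5% the ratio was 68.9 for Apoe (141), 13.7 for Sepp1 (39.2) and 85.5 for Coro1a (28.3). Under that limit there were 66 germ cells in place of 310 and 341 other somatic cells in place of 545. The cells outside were thus a different mix. With a mitochondrial limit of 5%, which kept 442 cells, 23 cells were over the myeloid limit, 6 had Cd3 UMIs and no member reached 5% of the myeloid level in germ cells (0). Cells with Cd3 UMIs numbered 15 after thinning and 5 with at least 2 Cd3 UMIs. Members 4-fold higher in Cd3 cells numbered 11 with at least 2 Cd3 UMIs, 11 with the mean of CPM over cells, 11 with cells of both rules counted in both sets and 3 with a minimum of 100 UMIs. The share of all genes 4-fold higher in Cd3 cells is not given for these settings, so these counts only describe how the main count moved. No member reached 5% of the myeloid level in other somatic cells (0) with all barcodes, at resolution 1.2 or without the deepest myeloid cell. Sepp1 was at 5.10% in the main setting. The class of other somatic cells also changed, to 640 cells with all barcodes and 626 at resolution 1.2, and the cause was not tested. With cells of both rules counted in both sets, the member at 5% in germ cells was Cd3d in place of Coro1a. Leaving out the deepest cell and the cell without C1q, and the comparison of the cells that met both rules, were chosen after seeing the data. Sets of 5 to 35 cells limit what a count of 0 can show.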

Other observations

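Chemokine genes were patchy among the 35 cells over the myeloid limit. Ccl2 gave 111 UMIs in 17 cells, Ccl7 87 UMIs in 16 cells, Ccl12 88 UMIs in 11 cells with up to 31 in a cell, and Ccl24 98 UMIs in 26 cells with up to 35. Ccl2 and Ccl7 occurred together in 9 cells and were both at 0 in 11 cells. Cd79b, a chain of the B cell receptor complex, had 23 UMIs in 15 of the 35 cells and 4 in cells outside both rules, while Cd79a, Ms4a1 and Pax5 were at 0 in the 35 cells. Cd4 was found in 13 of them with 22 UMIs.

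The cell outside both rules with the highest level of the T cell list, picked by that value, had 3898 UMIs, 5 of Il7r, 4 of Lat, 4 of Gata3, 2 of Rora and 5 of Cd52, with no UMI of Cd3e, Cd3g or Cd3d. A limit of 1 Cd3 UMI thus left out a cell with these lymphoid genes and took in 14 cells of germ cell clusters.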
